A study of Homo sapiens with 6 samples.

Results

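The centromere and kinetochore genes described here are 45 genes, chosen by symbol, of the 39020 genes with a line in any of the 6 gene tables. They encode the centromeric nucleosome and its loading factors, the inner and outer kinetochore, the spindle checkpoint, the SKA complex, the shugoshins, and CENPJ, a centriole protein that shares the CENP naming. All 45 had a line in both RNA-seq tables, and 32 had a line in at least 1 of the 4 iCLIP tables. The rule names symbols and sets no threshold on a measured value, but the genes were chosen with earlier results of these data known.

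The samples were U2OS cells, a human osteosarcoma line. iCLIP, which counts cDNAs that end at ultraviolet crosslinks between a protein and RNA, was run on FLAG-tagged TIRR, a binding partner of the repair protein 53BP1. The iCLIP cells had the genotype TIRR_FLAG (stable transfection) and gave 2 untreated libraries and 2 libraries irradiated with 5 Gy of X-rays and left to recover for 4 h. RNA-seq was run on cells with the genotype WT, with 1 untreated library and 1 library given the same dose and recovery time, although the series text calls the RNA-seq exposure gamma radiation. The promoter that drove the tagged protein and whether the line was 1 clone are not given in the sources at hand. Empty-vector cells were not analysed here, so no iCLIP value has its background taken off, and the RNA-seq cells carried no tagged TIRR. Nothing in the labels says that replicates were separate cultures, so the spread that p-values measure here may be technical.

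The iCLIP libraries held 400723 to 799709 counts in genes and the RNA-seq libraries 13015406 and 13023903. Of 10 osteosarcoma and mesenchymal markers, 9 had at least 100 RNA-seq counts in both libraries, COL1A2 having 6 and 2, and the list summed to 9570 and 10701 counts per 1000000 gene counts. Of 9 markers of other cell types, GFAP alone reached 100, with 109 and 115 counts, CD3E was at 0, and the list summed to 19.8 and 19.7 per 1000000. All 5 radiation response genes checked were higher in the irradiated RNA-seq library, CDKN1A with 2335 counts untreated and 8111 irradiated.

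The centromere is marked by nucleosomes that hold the histone variant CENP-A, which the chaperone HJURP brings to chromatin. On these sits the constitutive centromere-associated network, which in mitosis recruits the KNL1, MIS12 and NDC80 complexes (the KMN network) that hold the ends of microtubules, while the checkpoint kinases and BUB proteins delay anaphase until every chromosome is attached. Many of these genes are transcribed mainly in late S phase, G2 and mitosis, and their promoters often hold the cell cycle homology region (TTTGAA and variants) and CCAAT boxes, which are sites for the DREAM and MuvB complexes and for NF-Y.

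In RNA-seq, 12 of the 45 genes were at least 1.5-fold lower in the irradiated library, and none was at least 1.5-fold higher. With 1 library per group there is no test. The rule asks for a ratio past 1.5-fold whose exact 95% counting interval lies wholly on that side of 1, in a gene with at least 50 counts in the 2 libraries together. The same rule marked 4.25 percent of all 16624 genes lower and 3.65 percent higher, against 26.7% of the 45. A stricter rule, 2-fold with the interval beyond 1.5-fold, marked CENPE, CENPA, BUB1 and TTK (8.89% of the 45 against 0.624 percent of genes), and it marked 0 of the 45 higher (0.863 percent of genes). The ratio was below 1 in 36 of the 45 (80% against 50.7 percent of all genes), with a median of 0.858, which is -0.22 on the log2 scale against -0.0044 for all genes. The interval lay below 1 for 28 genes, spanned 1 for 16 and lay above 1 for CENPQ alone. In bulk samples, fewer cells in mitosis or G2 and less RNA per cell cannot be told apart.

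**Figure D1:**
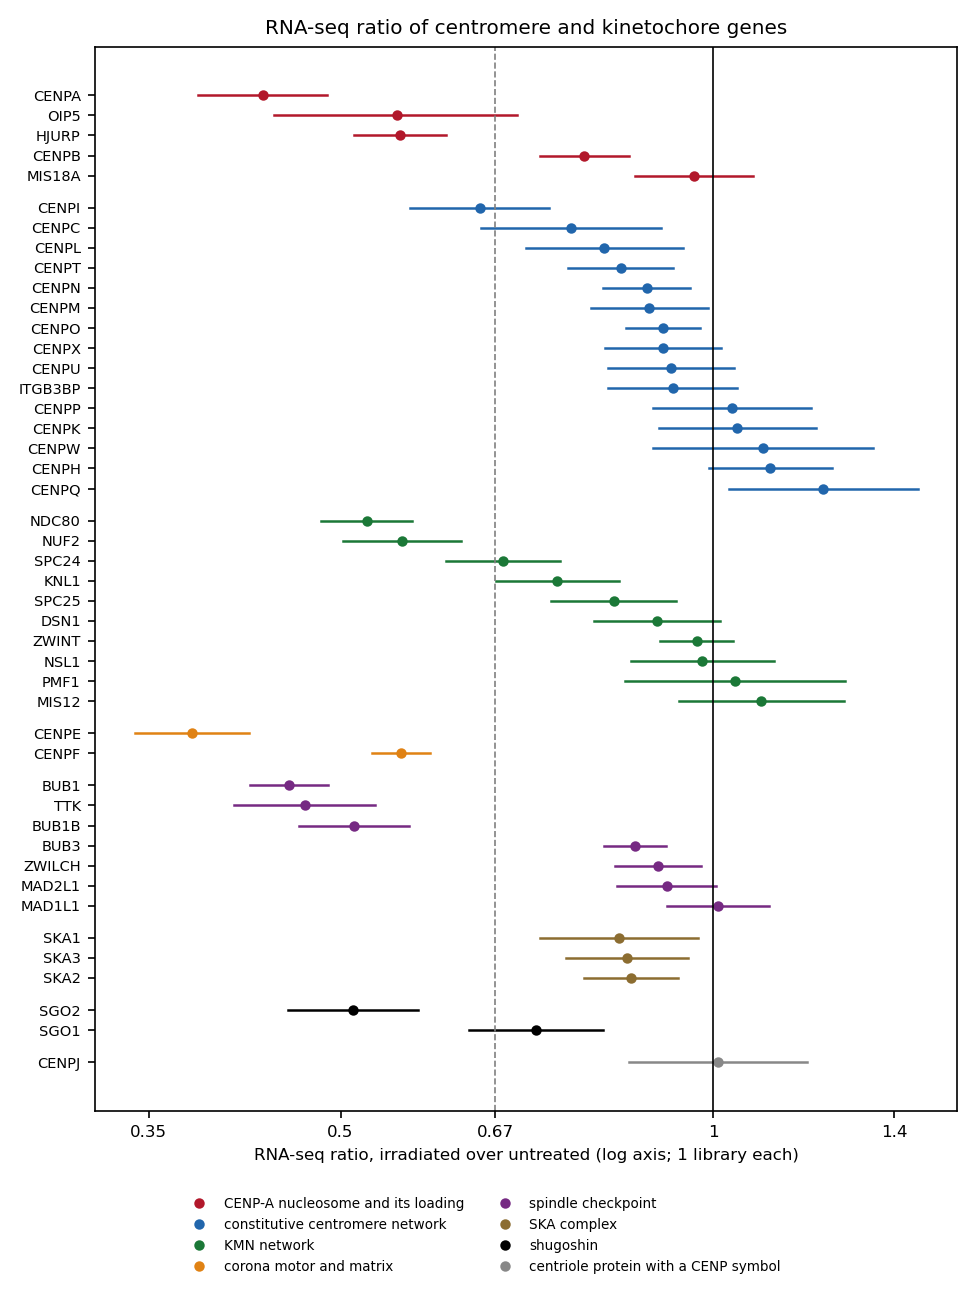
RNA-seq ratio of irradiated to untreated for each of the 45 genes, grouped by role, on a log axis. Points are the TMM-scaled ratio of 1 library to 1 library and bars are exact 95% counting intervals; CENPE is lowest at 0.379 and CENPQ highest at 1.23.

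Among the genes of the centromeric nucleosome, CENPA, the histone variant itself, had 910 RNA-seq counts untreated and 398 irradiated, a ratio of 0.432 (0.383 to 0.487). HJURP, its chaperone, went from 1501 to 848 counts, a ratio of 0.559 (0.513 to 0.608). OIP5, a subunit of the MIS18 complex that prepares centromeres for new CENP-A, had 221 and 124 counts and a ratio of 0.555 (0.442 to 0.694). MIS18A, of the same complex, had a ratio of 0.965 (0.864 to 1.08), an interval that spanned 1 and did not overlap that of OIP5. CENPB, which binds the CENP-B box in alpha-satellite DNA, stood at 0.787 (0.724 to 0.855), short of the 1.5-fold rule.

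The kinesin CENPE, a motor of the outer corona that carries chromosomes to the metaphase plate, had the lowest ratio of the 45, with 1262 counts untreated and 484 irradiated and a ratio of 0.379 (0.341 to 0.421). CENPF, a large coiled-coil protein of the corona, went from 3680 to 2081 counts, a ratio of 0.559 (0.530 to 0.590). Both genes of this role passed the 1.5-fold rule.

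Of the 7 checkpoint genes, 3 passed the rule. BUB1, the kinase that marks centromeric chromatin for the shugoshins, had 2360 and 1084 counts and a ratio of 0.454 (0.422 to 0.488). TTK, the MPS1 kinase that starts checkpoint signalling, had 714 and 338 counts and a ratio of 0.468 (0.410 to 0.534). BUB1B, which encodes BUBR1 of the mitotic checkpoint complex, had 1093 and 567 counts and a ratio of 0.513. The other 4 genes of this role did not pass. BUB3 at 0.865 (0.816 to 0.917) and ZWILCH of the RZZ complex at 0.902 (0.832 to 0.977) had intervals below 1, while those of MAD2L1 at 0.917 and MAD1L1 at 1.01 spanned 1.

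Within the KMN network the 2 genes past the rule were NDC80 (1573 and 835 counts, ratio 0.525) and its dimer partner NUF2 (910 and 516 counts, ratio 0.561). SPC24 and SPC25, the other dimer of the same complex, had ratios of 0.677 and 0.831. KNL1, the scaffold for the BUB proteins, was at 0.748 (0.667 to 0.839). Genes of the MIS12 complex lay nearer to 1, with DSN1 at 0.901, NSL1 at 0.980, PMF1 at 1.04 and MIS12 at 1.09. ZWINT, a KNL1 partner, was at 0.970 with 1746 and 1712 counts.

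The 15 genes of the constitutive network had a median ratio of 0.911 over a range from 0.648 to 1.23. CENPI alone of these passed the rule, its ratio being 0.648 (0.569 to 0.737) on 600 and 393 counts. CENPC, which binds the CENP-A nucleosome directly, was at 0.768 and CENPT, the other link to the outer kinetochore, at 0.842. CENPQ, at 236 and 293 counts, had the only interval above 1 (1.03 to 1.46). CENPH stood at 1.11, CENPW at 1.10, CENPK at 1.05 and CENPP at 1.04, each with an interval that spanned 1.

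SGO2, a shugoshin that protects centromeric cohesin, had 798 and 413 RNA-seq counts and a ratio of 0.512 (0.453 to 0.577), while SGO1 was at 0.719. The SKA genes, whose product couples kinetochores to shrinking microtubules, had ratios of 0.839 (SKA1), 0.858 (SKA2) and 0.852 (SKA3). CENPJ, the centriole gene, had 292 and 298 counts and a ratio of 1.01.

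Promoter sequence was available from RefSeq (GRCh38.p14, 250 bases before to 50 after the start) for 38 of the 45 genes, in 43 windows, all but TTK, KNL1, CENPL, BUB3, CENPM, MIS18A and CENPH. Each window was searched on both strands for TTTGAA and its variants TTTCGAA and TTTAAA (cell cycle homology region), CCAAT (NF-Y), and TTTCCCGC, TTTGGCGC and TTTCGCGC (E2F); none of these words lies inside another. TTTGAA stood in 34.9% of the 43 windows against 15.2% of all 35116 windows, CCAAT in 60.5% against 34.6%, TTTCGAA in 4.65% against 0.632%, any E2F word in 11.6% against 2.74%, and TTTAAA in 11.6% against 12.2%. Among the 11 genes that passed the RNA-seq rule and had a window, 6 held TTTGAA, 6 held CCAAT and 4 held TTTAAA. Among the 27 others, 8 held TTTGAA, 17 held CCAAT and 0 held TTTAAA. Some windows lie inside the RefSeq span of the gene and may not be its main promoter. Those of CENPI (chrX:101100808-101101057, span from 101098204) and ITGB3BP (chr1:63523226-63523475, span to 63529187) are examples. CENPI counts among the 11, and the 250 bases before its start held none of the searched words. Those of NDC80 and NUF2, also among the 11, held none either. For SGO2, chr2:200525892-200526141 held none, while its other window held TTTAAA at -30 and CCAAT at -65. Of the 6 genes with TTTGAA, NUF2 and CENPF had it after the start, and in NDC80 it ran across the start. The 250 bases before the start are shown for 5 genes that passed the RNA-seq rule, HJURP with its 4 CCAAT words among them. All 5 hold searched words there, so they do not stand for all 11. ZWINT is included, with an RNA-seq ratio near 1 and with TTTGAA and CCAAT words, as in CENPA and HJURP. The sequences run 5′ to 3′ on the gene's strand, and capitals mark any searched word, read on either strand. Positions count back from the start, the last base before it being -1.
CENPE: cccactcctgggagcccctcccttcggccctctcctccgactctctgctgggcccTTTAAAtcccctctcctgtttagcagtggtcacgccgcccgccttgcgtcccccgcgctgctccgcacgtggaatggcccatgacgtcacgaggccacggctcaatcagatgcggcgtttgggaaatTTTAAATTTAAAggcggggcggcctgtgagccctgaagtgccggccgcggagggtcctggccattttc
CENPA: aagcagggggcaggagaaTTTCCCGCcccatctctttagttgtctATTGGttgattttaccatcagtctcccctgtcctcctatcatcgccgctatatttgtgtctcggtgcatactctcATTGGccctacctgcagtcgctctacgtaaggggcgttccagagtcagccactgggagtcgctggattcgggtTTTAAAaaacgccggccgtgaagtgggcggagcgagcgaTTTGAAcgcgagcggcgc
BUB1: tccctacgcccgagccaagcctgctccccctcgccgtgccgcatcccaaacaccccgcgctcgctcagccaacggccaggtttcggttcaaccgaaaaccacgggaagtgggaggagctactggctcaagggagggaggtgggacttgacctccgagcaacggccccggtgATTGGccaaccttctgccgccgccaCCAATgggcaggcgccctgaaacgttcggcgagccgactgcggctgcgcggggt
BUB1B: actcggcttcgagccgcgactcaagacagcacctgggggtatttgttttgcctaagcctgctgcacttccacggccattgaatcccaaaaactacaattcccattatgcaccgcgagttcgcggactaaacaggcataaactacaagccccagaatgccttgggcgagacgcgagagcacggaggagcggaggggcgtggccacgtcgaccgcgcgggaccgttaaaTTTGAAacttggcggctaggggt
HJURP: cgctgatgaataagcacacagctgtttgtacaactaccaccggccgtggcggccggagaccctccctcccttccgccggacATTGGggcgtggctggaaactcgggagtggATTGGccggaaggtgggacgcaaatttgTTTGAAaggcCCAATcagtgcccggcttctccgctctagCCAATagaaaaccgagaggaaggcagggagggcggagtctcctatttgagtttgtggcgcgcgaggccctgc
ZWINT: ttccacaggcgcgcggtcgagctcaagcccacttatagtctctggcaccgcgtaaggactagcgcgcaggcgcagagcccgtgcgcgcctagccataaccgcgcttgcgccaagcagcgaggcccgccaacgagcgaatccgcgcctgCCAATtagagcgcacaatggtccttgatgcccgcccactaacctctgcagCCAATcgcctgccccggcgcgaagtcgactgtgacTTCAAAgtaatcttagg
These windows are chr4:103198344-103198593 (minus strand, CENPE), chr2:26785806-26786055 (plus, CENPA), chr2:110678064-110678313 (minus, BUB1), chr15:40160819-40161068 (plus, BUB1B), chr2:233854536-233854785 (minus, HJURP) and chr10:56361274-56361523 (minus, ZWINT). TTTGAA lay at -18 in CENPA, at -23 in BUB1B, at -111 in HJURP and, on the other strand, at -17 in ZWINT. CENPE held TTTAAA at -195 and an adjoining pair at -68 and -62. BUB1 held CCAAT at -79, on the other strand, and at -54, and none of the homology region words. A match is only a run of letters in the reference sequence.

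The iCLIP tables had no line for 13 of the 45 genes: CENPC, CENPE, CENPF, CENPJ, CENPQ, CENPT, CENPU, NDC80, SPC24, SPC25, MAD2L1, MIS18A and OIP5. Each of these had at least 345 RNA-seq counts over both libraries, and CENPF had 5761, the most of the 45. CENPE, CENPF, NDC80 and OIP5, which passed the RNA-seq rule, are among them and have no iCLIP value. Absence was common: of 11327 genes with at least 300 RNA-seq counts, 22.0% had no iCLIP line, against 28.9% of the 45. Among genes of 20 kb or more the shares were 17.5% and 32.3% (10 of 31). The minimum of 300 was chosen after the counts were seen, and a missing line is not treated as a measured 0. No change is given for these genes.

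In iCLIP, 23 of the 45 genes had enough counts to be tested, and SGO2 was called lower after irradiation. Its counts were 38 and 52 untreated and 11 and 6 irradiated, or 55.5 ± 11.3 and 18.7 ± 13.5 counts per 1000000 of the TMM-scaled library (CPM; mean ± SD, n = 2 each), with both irradiated libraries below both untreated. The log2 fold change was -1.74 ± 0.40 (SE), a 3.34-fold lower level, with an adjusted p of 0.0178 by edgeR's quasi-likelihood test with Benjamini-Hochberg adjustment over 9230 genes. SGO2 (ENSG00000163535) lies at chr2:200526142-200584096 in RefSeq GRCh38.p14. Its line covers 74089 bases, more than this 57955-base span, so some counts may lie outside it. The call rests on few counts: its edgeR adjusted p was 0.251 without irradiated replicate 2 and 0.0510 without untreated replicate 2, and the log2 fold change was -0.97 and -1.51 there. After the libraries were thinned to equal depth the edgeR adjusted p was 0.0981.

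The 1 gene called is 4.35% of the 23, where 1.07 percent of all tested genes were called lower, 2.43 percent higher and 3.5 percent in either direction. No gene of the 23 was called higher. Before adjustment, 8 had p under 0.05, all lower (34.8% against 6.21 percent of all genes): SGO2, CENPB, BUB1, HJURP, SKA2, CENPI, NUF2 and KNL1. The untreated and irradiated CPM did not overlap, with irradiated lower, in 14 of the 23 (60.9% against 22 percent of all genes) and, with irradiated higher, in CENPK alone (4.35% against 22 percent). The fold change was negative in 17 and positive in 6, 73.9% negative against 49.8 percent of all genes, with a median of -0.50 against 0.0016. Of the 23, 11 had under 20 counts in each irradiated library, which limits the precision of their fold changes.

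**Figure D2:**
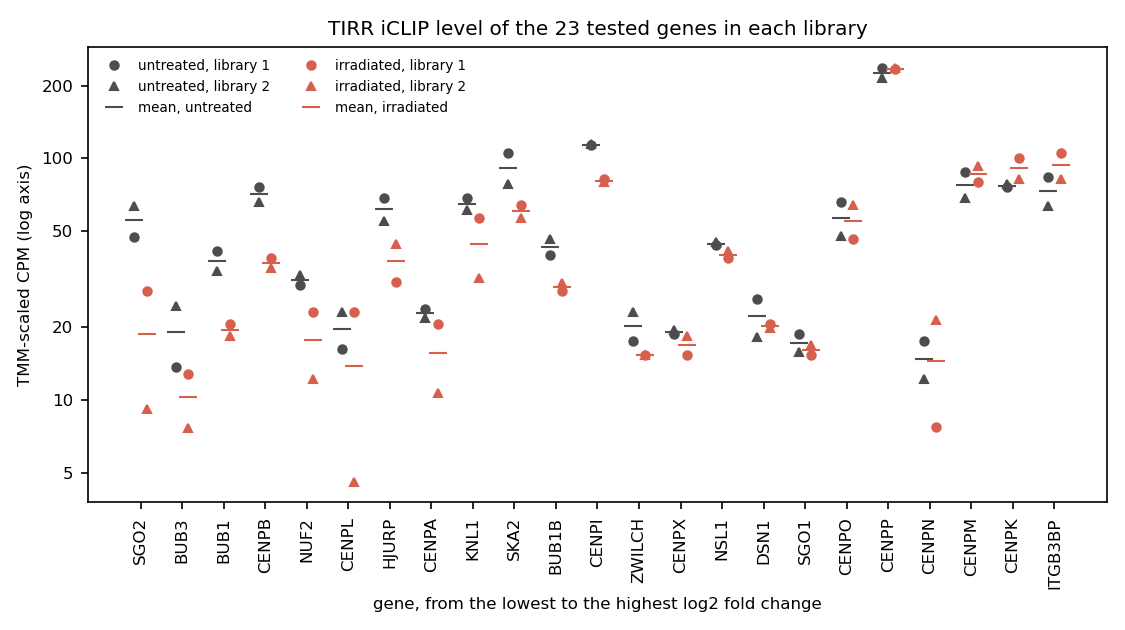
TIRR iCLIP level of the 23 tested genes in each library, in CPM on a log axis, with the 2 untreated and 2 irradiated libraries as separate points. SGO2 has the widest gap between the group means, from 55.5 to 18.7 CPM, with its irradiated libraries at 28.3 and 9.18. CENPP, with means of 226.1 and 235.6, has the highest level.

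CENPB had 61 and 54 counts untreated and 15 and 23 irradiated, 71.1 ± 7.36 and 36.9 ± 2.40 CPM, and both irradiated libraries were lower. Its log2 fold change of -0.96 ± 0.26 missed the threshold (edgeR adjusted p = 0.0526). Scaling by library totals in place of TMM gave an edgeR adjusted p of 0.0377. A replicate block with crossed numbers gave an edgeR adjusted p of 0.00794. The labels do not give that pairing, and it was chosen after seeing the data. Other settings left CENPB above the threshold. Its edgeR adjusted p was 0.102 after thinning to equal depth and 0.123 with a block by replicate number. The DESeq2 adjusted p was 0.488. The side of the threshold thus turned on the setting. HJURP, with 55 and 45 counts untreated and 12 and 29 irradiated, stood at -0.66 ± 0.28 on the log2 scale (edgeR adjusted p = 0.266). CENPA had 19 and 18 counts against 8 and 7, and -0.65 ± 0.45. The CENPA line covers 32882 bases in iCLIP and 19836 in RNA-seq, against a RefSeq span of 8534. The groups did not overlap in any of these 3 genes, the tested ones of the CENP-A nucleosome role. Of all tested genes, 22 percent did not overlap with irradiated lower. CENPB has no intron and is 2890 bases long in the tables, at chr20:3783851-3786740, and it had the most untreated iCLIP counts per kb of the genes in this role, 19.9.

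The 4 tested checkpoint genes all had lower CPM in both irradiated libraries than in either untreated library, and none was called. With 2 libraries against 2, 22 percent of all tested genes were separated in this direction. BUB1B had 32 and 38 counts untreated and 11 and 20 irradiated, 43.2 ± 4.48 and 29.4 ± 1.63 CPM, and its log2 change was -0.54 ± 0.31 (edgeR adjusted p = 0.463). BUB1 had 33 and 28 counts against 8 and 12, 37.7 ± 5.03 and 19.5 ± 1.57 CPM, with -0.96 ± 0.36 (edgeR adjusted p = 0.197). BUB3, a WD-repeat partner of both, had -0.97 ± 0.54 and ZWILCH -0.40 ± 0.44. TTK and MAD1L1 had too few counts to be tested. TTK had 12 and 8 counts against 3 and 4, and the ratio of its summed shares was 0.520 with an interval of 0.186 to 1.28.

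In the KMN network the tested genes were KNL1, NSL1, NUF2 and DSN1, all with negative fold changes. KNL1 had 55 and 50 counts untreated and 22 and 21 irradiated, 64.9 ± 5.50 and 44.4 ± 17.3 CPM, and its log2 change was -0.63 ± 0.28 (edgeR adjusted p = 0.300). NSL1 had 35 and 37 counts against 15 and 27, 44.5 ± 0.968 and 39.9 ± 1.93 CPM, and -0.14 ± 0.28. NUF2 stood at -0.93 ± 0.41, on a line of 89189 bases against a RefSeq span of 33806. ZWINT had 7 and 6 counts untreated and 1 and 1 irradiated, a ratio of summed shares of 0.228 with a counting interval of 0.025 to 1.01, while its RNA-seq ratio was 0.970. PMF1 had 1 count in 1 library, and its line covers 607 bases of a 27036-base RefSeq span.

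The constitutive network carried most of the iCLIP counts of the 45 genes and had no shared direction, with 3 tested genes negative, 6 positive and a median of 0.06. CENPP had 190 and 176 counts untreated and 91 and 155 irradiated, 226.1 ± 16.2 and 235.6 ± 2.18 CPM, with a log2 fold change of 0.06 ± 0.15. Its line spans 294577 bases, within which RefSeq places 8 further genes, ASPN, ECM2, OGN and OMD among them, and the sources at hand do not say how reads in those were assigned. CENPI had 91 and 94 counts against 32 and 52, 114.2 ± 0.619 and 80.9 ± 1.94 CPM, and -0.50 ± 0.20 (edgeR adjusted p = 0.229). A pseudogene of CENPI, CENPIP1, had 37 and 45 counts against 13 and 21. The sequences of CENPI and CENPIP1 were not compared. Reads could be split between them, and the CENPI value is uncertain. ITGB3BP (CENP-R), with 67 and 52 counts against 41 and 54, had the highest fold change of the 23, 0.32 ± 0.23 (edgeR adjusted p = 0.580). CENPK at 0.22 ± 0.21, CENPM at 0.17 ± 0.22 and CENPO at 0.01 ± 0.27 also lay within their errors of 0 or close to it.

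SKA2 had 84 and 64 counts untreated and 25 and 37 irradiated, 91.6 ± 19.1 and 60.5 ± 5.44 CPM, and its log2 change was -0.61 ± 0.24 (edgeR adjusted p = 0.216). SKA1 had 11 and 8 counts against 4 and 8 and was not tested, with a ratio of summed shares of 0.938 (0.415 to 2.03). SGO1, the other shugoshin, had 15 and 13 counts against 6 and 11 and a log2 fold change of -0.09 ± 0.45, so the shugoshin genes had unlike values, although the difference between them was not tested.

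Summed over the genes with an iCLIP line, the iCLIP share of gene counts was 0.145% and 0.132% untreated and 0.114% and 0.107% irradiated, with exact Clopper-Pearson 95% intervals of 0.137 to 0.154, 0.124 to 0.140, 0.104 to 0.125 and 0.0997 to 0.116. The means were 0.139 ± 0.00935% and 0.111 ± 0.00452% (SD, n = 2), a ratio of 0.798, and the groups did not overlap. That sum comes from the 32 genes with an iCLIP line. In RNA-seq the same 32 genes went from 0.219% to 0.172%, a ratio of 0.787, and all 45 from 0.313% to 0.236%, a ratio of 0.756. The 13 genes with no iCLIP line made up 0.0938% and 0.0641% of the RNA-seq counts.

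The sums by role were also not TMM-scaled. The constitutive network held 705 ± 59.4 iCLIP counts per 1000000 gene counts untreated and 691 ± 3.33 irradiated, a ratio of 0.981. The checkpoint genes went from 145 ± 9.33 to 85.5 ± 6.09 (0.591), the CENP-A nucleosome role from 159 ± 18.6 to 88.0 ± 0.997 (0.552), and the shugoshins from 74.5 ± 9.55 to 34.0 ± 11.9 (0.456). The KMN network went from 185 ± 10.1 to 127 ± 24.7 (0.689) and the SKA genes from 117 ± 24.2 to 80.03 ± 6.81 (0.683). The RNA-seq sums by role include the genes with no iCLIP line. The assays thus sum unlike gene sets in the constitutive, KMN, CENP-A nucleosome and checkpoint roles, and their ratios are not matched. In RNA-seq the constitutive network had the highest ratio of the roles with more than 1 gene, 0.918. The corona genes had the lowest, 0.519 (380 and 197 per 1000000).

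**Figure D3:**
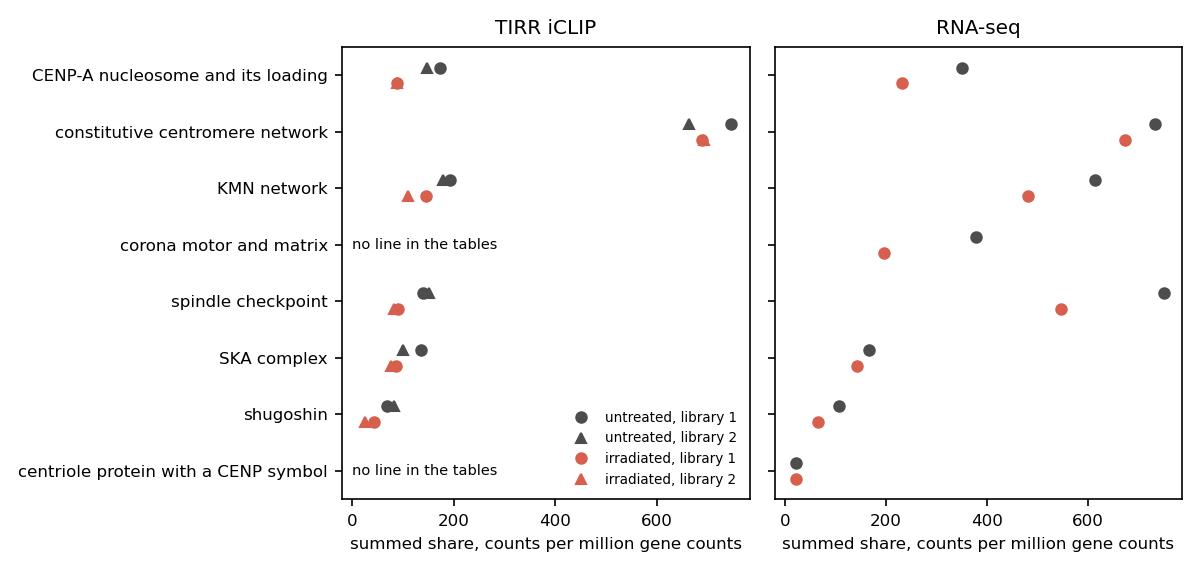
Summed share of each role in counts per 1000000 gene counts, in the 4 iCLIP libraries (left) and the 2 RNA-seq libraries (right). The constitutive network has iCLIP means of 705 and 691, and irradiated points lie left of untreated points in the other roles that have iCLIP lines. The RNA-seq sums include genes with no iCLIP line.

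The assays were set side by side for the 23 tested genes, which share no library between them. The sign was the same in 19, with 17 negative in both. The 7 tested genes past the RNA-seq rule (SGO2, BUB1, BUB1B, CENPA, HJURP, NUF2 and CENPI) were all negative in iCLIP, with a median log2 fold change of -0.66. The other 16 had a median of -0.14, with 10 negative. These counts of signs have no baseline over all tested genes. In iCLIP 17 of the 23 were negative, and most of the 23 had RNA-seq ratios below 1. Like signs would thus be common even without a link between the assays. Across the 23 genes the iCLIP log2 fold change and the RNA-seq log2 ratio had a Pearson r of 0.661 and a Spearman rho of 0.719, against 0.351 and 0.230 across 8090 genes. Genes are not independent replicates, the points share libraries, and the values are a description. CENPB and BUB3 had iCLIP changes near -1 on the log2 scale (-0.96 and -0.97) beside RNA-seq log2 ratios of -0.35 and -0.21. Because the assays used cells of different genotype and RNA-seq has 1 library per group, iCLIP change per transcript was not tested.

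**Figure D4:**
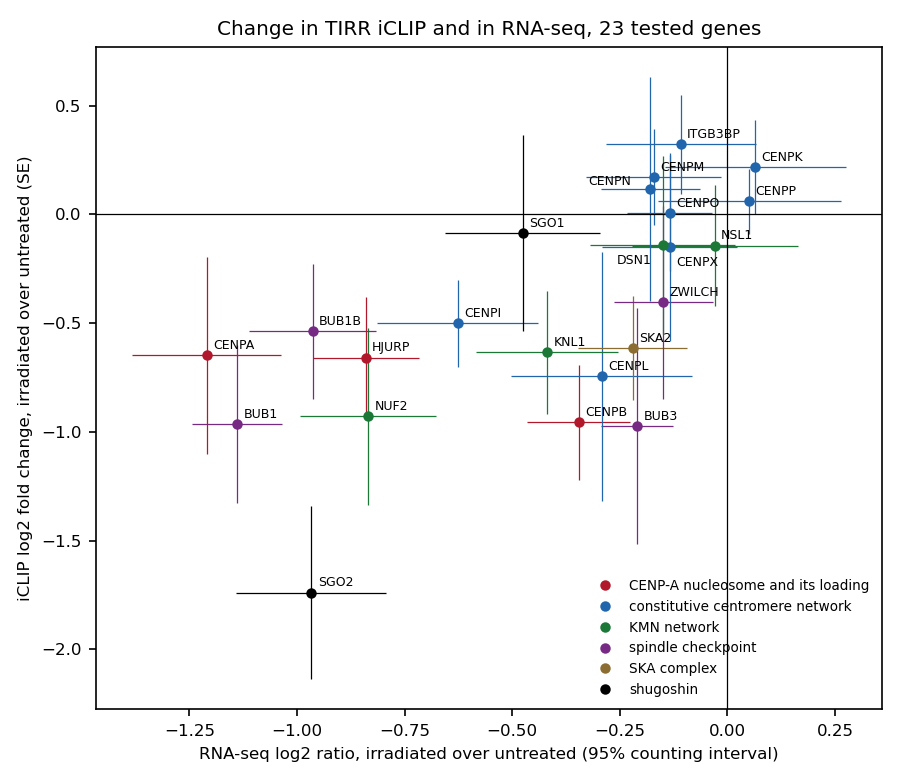
Log2 change in iCLIP (vertical, bars SE, 2 against 2 libraries) against the log2 RNA-seq ratio (horizontal, bars 95% counting interval, 1 against 1) for the 23 tested genes, coloured by role. SGO2 is lowest in iCLIP at -1.74 and constitutive network genes lie mostly near 0 on both axes.

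In untreated cells, the ratio of a gene's iCLIP share of gene counts to its RNA-seq share had a median of 0.424 over the 32 genes with an iCLIP line, against 0.875 over 11385 genes, and 23 of the 32 lay below the latter. Both shares are of counts, not per length, and the iCLIP counts were taken over lines whose lengths often include introns. Longer lines had higher ratios (Spearman rho across genes 0.593 for the 32 and 0.641 for all), so genes of 20 to 100 kb were also compared: 20 members had a median of 0.485 against 0.974 for 4771 genes, with 15 below. CENPP (8.41), CENPK (2.85), CENPI (2.55), ITGB3BP (1.75) and CENPM (1.49), all of the constitutive network, had high ratios, and 8 of the 32 were over 1. High ratios were not shared across that network. Its other genes with an iCLIP line (CENPH, CENPN, CENPW, CENPX, CENPO and CENPL) lay below the all-gene median of 0.875. ZWINT (0.066), PMF1 (0.087), BUB3 (0.105) and MAD1L1 (0.142) had the lowest. The MAD1L1 line covers 2580 bases where its RefSeq span is 417151, and the PMF1 line is also short, so these 2 values may miss most of the gene. Per kb of line, the 32 genes had a median of 0.692 untreated iCLIP counts against 0.585 for all ranked genes.

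Lists of related genes, chosen for function with earlier results of these data known, are given beside the 45. Of 21 other kinetochore and checkpoint genes, 6 were lower by the 1.5-fold rule and 0 higher, among them CDC20, the activator of the anaphase-promoting complex that the checkpoint holds back (3666 and 1452 counts, ratio 0.392), and the kinesin KIF18A (0.433). Of 6 genes of the chromosomal passenger complex and mitotic kinases, 3 were lower: PLK1 at 0.241, CDCA8 (borealin) at 0.377 and INCENP at 0.546. CDCA8 was also called lower in iCLIP, with 38 and 31 counts against 3 and 5, a log2 fold change of -2.44 ± 0.44 and an edgeR adjusted p of 0.00252. Of 15 cohesin genes 2 were lower in RNA-seq (RAD21 at 0.660 and ESPL1, separase, at 0.550), of 17 genes of the anaphase-promoting complex 2 (UBE2C at 0.519 and UBE2S at 0.598), and of 8 condensin genes 0. The same RNA-seq rule marked 4.25 percent of all genes lower and 3.65 percent higher. In iCLIP, of the 36 tested genes on these 5 lists CDCA8 alone was called, where 3.5 percent of all tested genes were called in either direction. The genes with the most untreated counts on the other 4 lists were not called: CLASP1 at 0.08 ± 0.13, STAG1 at -0.30 ± 0.13, FZR1 at -0.02 ± 0.21 and NCAPG2 at 0.07 ± 0.16 (edgeR adjusted p from 0.307 for STAG1 to 0.981 for FZR1).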

How the data were processed

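Per the file headers, the tables the authors deposited hold an unscaled cDNA count for every gene listed and the percent of the library's cDNA that it makes up. Per the submitters' processing notes, hg38 was the build and kallisto 0.44.0 was used for RNA-seq. The aligner, annotation release, duplicate removal and strand setting are not stated in the sources at hand, so overlapping and antisense genes may share reads. Intergenic counts (30.6% to 31.3% of iCLIP and 44.4% of RNA-seq counts) were left out of library sizes. iCLIP totals were 583192 to 1155052 counts, and RNA-seq totals 23401311 and 23407174. Identifiers matched the gene name table for 99.9% (iCLIP) and 99.7% (RNA-seq) of lines.

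The iCLIP comparison used the quasi-likelihood F test of edgeR 4.0.16 (R 4.3.3), after filterByExpr at its defaults and TMM scaling, and Benjamini-Hochberg adjustment over all tested genes at 0.05, two-sided. The SE of an edgeR log2 fold change was derived from that test, as its absolute value over the square root of F. Genes below the filter are given as the ratio of summed shares. RNA-seq ratios were TMM-scaled, with exact conditional 95% intervals, and the stricter rule also asks for 100 counts in 1 library. All intervals cover counting error only. Ratios of iCLIP to RNA-seq share used a prior count of 0.5 and genes with at least 50 RNA-seq counts. Alternatives were DESeq2 1.42.0, library totals, other filters, a replicate block, thinning and leaving out each library.

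The members and gene lists were chosen with earlier results of these data known. Any member could be named. Per-library values are given for called genes, the 2 genes of each role with the most untreated iCLIP counts, and genes past the stricter RNA-seq rule. Those of the other members given were chosen after their values were seen. From each related list, called genes and the one with most untreated iCLIP counts are named, and RNA-seq values of further genes were chosen after their values were seen. Between replicates, chi-square over degrees of freedom was 1.51 (untreated) and 2.12 (irradiated), above the 1 of counting error. Positions and promoters came from RefSeq GRCh38.p14.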

Additional observations from a re-analysis of the deposited data

How the results depend on the processing

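Of the 23 genes tested in iCLIP, 1 was called in the main analysis, 2 with scaling by library totals (SGO2 and CENPB), 0 with DESeq2 (10 of the 23 had an adjusted p, and 2 had an unadjusted p under 0.05), 0 of the 18 that could be fitted after thinning the libraries to equal depth (2 at an unadjusted p under 0.05 in edgeR), and 0 to 1 when each library was left out. The count was 0 without untreated replicate 2 and without irradiated replicate 2, where 6 and 3 genes had an unadjusted p under 0.05 in edgeR. SGO2 itself had no DESeq2 adjusted p (unadjusted p = 0.0057). Its edgeR adjusted p ranged from 7.42e-06 to 0.251 over the alternatives. Over all 9230 genes tested, 323 were called, against 121 of the 4398 with a DESeq2 adjusted p, 191 after thinning and 186 to 421 without 1 library. The labels do not say that replicate numbers pair libraries, and the deviations of same-numbered libraries had a correlation of -0.106. With the replicate block 190 genes were called, 1 of the 23 among them, and with the numbers crossed, chosen after seeing the data, 669 and 2. On the related lists, 1 gene was called, against 2 with no filter, 0 of the 22 with a DESeq2 adjusted p and 2 with the crossed numbers. In RNA-seq, 12 genes were lower, and 4 under the stricter size rule. The median log2 ratio of iCLIP to RNA-seq share was -1.24, against -0.76 with a prior count of 5, and -1.41 to -1.12 without 1 untreated library. The ratio of summed shares was 0.798, and 0.759 without CENPP. Of 226 values of single genes under alternatives, 206 kept direction and side of the threshold, and 15 changed sign in 7 genes, none of them called. With library totals CENPO had -0.059 and CENPP -0.0061; CENPO had -0.023 with no filter, -0.020 with DESeq2 and -0.042 crossed, and DSN1 had 0.40 after thinning. Leaving out 1 library gave -0.29 to 0.24 for CENPO, -0.018 to 0.12 for CENPP, -0.92 to 0.53 for CENPN, -0.0066 to 0.35 for CENPM, -2.07 to 0.23 for CENPL, -0.21 to 0.025 for SGO1 and -0.39 to 0.13 for DSN1. The cause of these changes was not tested.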
